A study of Mus musculus with 12 samples.

Results

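The genes described here encode the hyaluronan-based extracellular matrix of the brain and of perineuronal nets, the dense coats that form around some neurons. They are the 4 lecticans *Acan*, *Bcan*, *Ncan* and *Vcan*, the link proteins *Hapln1* and *Hapln4*, the tenascins *Tnr* and *Tnc*, and the hyaluronan synthases *Has2* and *Has3*. The 10 genes were taken by symbol, from the probesets that carried a single gene symbol, and all 10 were measured among the 20358 genes of the arrays. RNA came from primary cultures of hippocampal neurons of RjOrl:SWISS mouse embryos (e17.5 to 18.5) and was measured with the Mouse Gene 1.0 ST array of Affymetrix on 6 occasions up to day 15 in vitro (15 DIV): on the day of plating (0 DIV), at 1 DIV, for which the labels give 20 hours, and at 3, 6, 12 and 15 DIV. Every occasion has 2 arrays, which the methods call independent replicas. The cells were plated in serum medium for 1 to 2 h, and the groups are not described as differing in genotype. Cytosine arabinoside (1 µM), which kills dividing cells, was added to the cultures at 3 DIV, so that the 6, 12 and 15 DIV groups had been exposed to it and the 0 and 1 DIV groups had not. Time in culture and this drug cannot be told apart in the comparisons of the later times with 0 DIV, and whether the 3 DIV samples were taken before or after its addition is not given in the sources used here. Such cultures hold neurons together with glia and other cells, so that fewer cells of a type and less RNA per cell cannot be told apart.

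In this matrix, hyaluronan is made at the cell surface by the Has enzymes, the lecticans (chondroitin sulphate proteoglycans) bind it through link proteins, and tenascins crosslink the lecticans. In the rodent brain, the embryonic matrix is known for neurocan, versican and tenascin-C, and is replaced after birth by a matrix with aggrecan, brevican, tenascin-R and Hapln4, from which perineuronal nets are built. *Ncan*, *Vcan* and *Tnc* were accordingly grouped as embryonic matrix genes and *Acan*, *Bcan*, *Tnr* and *Hapln4* as adult matrix genes, with *Hapln1*, *Has2* and *Has3* in neither group.

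At 15 DIV against 0 DIV, all 4 adult matrix genes were higher, as was *Hapln1*, and of the embryonic matrix genes *Tnc* and *Vcan* were lower while *Ncan* was higher. Of the 10 genes, 6 rose and 2 fell, and *Has2* and *Has3* did not pass the test (limma with replicate as a block, Benjamini-Hochberg adjusted over all genes, threshold 0.05). Among all genes, 24.8% were called at 15 DIV, 16.4% higher and 8.43% lower. Higher genes made up 66.0% of these calls, against 48.6% once the gene values were quantile normalized and 49.1% once arrays were centred on their medians. The median log2 difference was 0.89 over the 10 genes, against 0.01 over all genes, and it was 1.84 over the adult and -1.69 over the embryonic matrix genes. The largest rise was that of *Hapln1*, 12.6-fold, and the largest fall that of *Tnc*, 6.45-fold. Gene values rest on the more variable 50% of each gene's probesets, picked over these same arrays, which favours large differences. With all probesets the log2 difference of *Hapln1* was 2.44 in place of 3.66. Over the whole time course, 8 of the 10 genes passed the F test of limma, against 22.0% of all genes, and *Acan* (adjusted p = 0.089) and *Has2* (adjusted p = 0.12) did not. With 1 array left out, the number of genes that rose at 15 DIV was 3 without either 0 DIV array and 2 without replicate 2 at 15 DIV, in place of 6, and the F test passed for 5 genes without either 0 DIV array or without replicate 1 at 15 DIV.

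**Figure D1:**
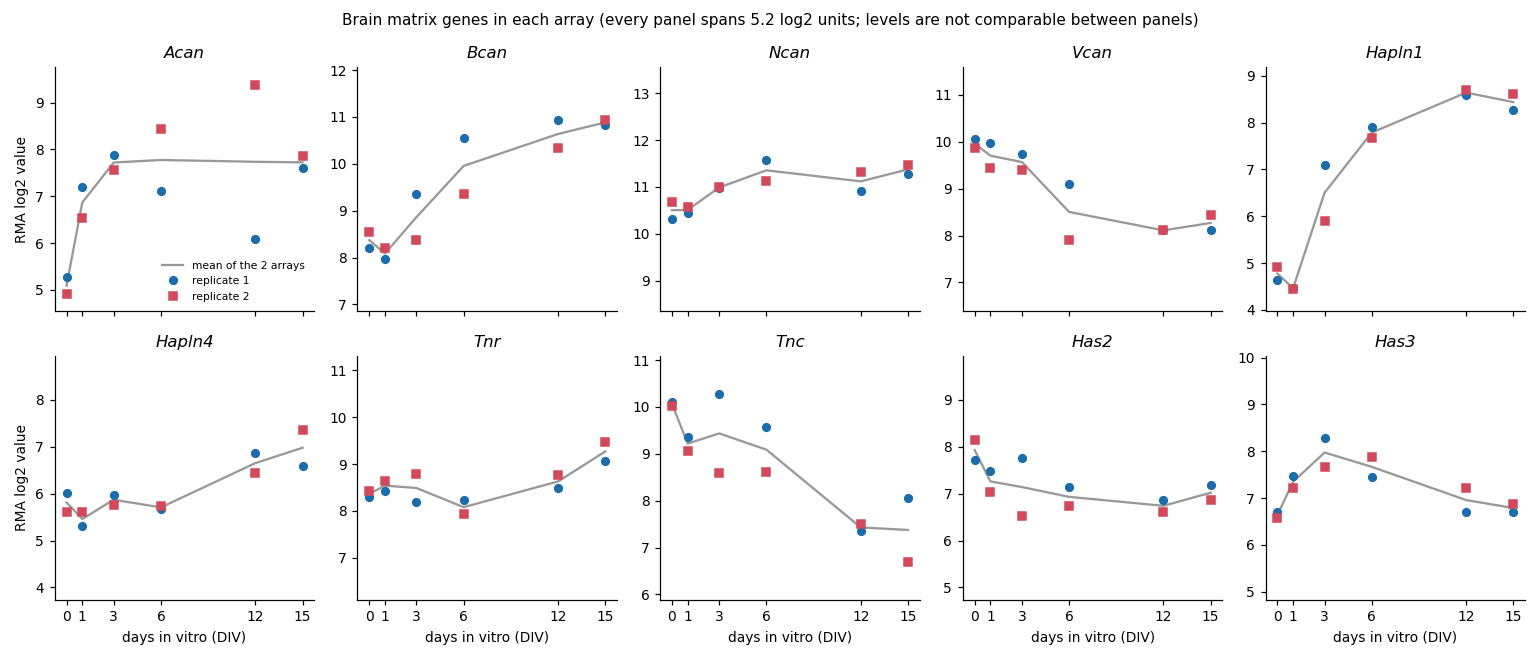
RMA log2 value (y axis) of the 10 brain matrix genes against days in vitro (x axis). Circles are replicate 1, squares replicate 2 and the line joins the means of the 2 arrays. *Hapln1*, *Bcan* and *Acan* lie lowest at 0 or 1 DIV, *Tnc* and *Vcan* lie lowest at 12 or 15 DIV apart from 1 *Vcan* array at 6 DIV (7.91), and the 12 DIV arrays of *Acan* stand wide apart (6.09 and 9.38).

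The sequence in front of the start site is shown for a gene with a large rise (*Hapln1*), an adult lectican (*Acan*) and both tenascins, which differed in direction. A RefSeq promoter window (GRCm38.p6) was found for 7 of the 10 genes, and each stretch ends at the base before the furthest annotated start of its gene. Capitals mark matches, on either strand, to any of 6 motifs: the core promoter element TATAAA, the Sp1 element GGGCGG, the common upstream element CCAAT, the helix-loop-helix element CAGCTG, the AP-1 element TGACTCA and the octamer element ATGCAAAT. The stretches are chr13:89540386-89540528 (plus strand, 143 bases) for *Hapln1*, chr7:79052976-79053225 (plus strand, 250 bases) for *Acan*, chr1:159523519-159523728 (plus strand, 210 bases) for *Tnr* and chr4:64047016-64047265 (minus strand, 250 bases) for *Tnc*.
Hapln1: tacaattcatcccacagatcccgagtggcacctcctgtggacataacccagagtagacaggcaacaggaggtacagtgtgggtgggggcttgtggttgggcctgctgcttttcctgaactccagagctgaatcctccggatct
Acan: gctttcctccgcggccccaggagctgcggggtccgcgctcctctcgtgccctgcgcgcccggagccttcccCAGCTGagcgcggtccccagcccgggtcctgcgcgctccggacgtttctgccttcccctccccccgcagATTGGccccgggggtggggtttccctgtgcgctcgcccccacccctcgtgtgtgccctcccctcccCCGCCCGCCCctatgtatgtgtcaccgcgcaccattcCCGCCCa
Tnr: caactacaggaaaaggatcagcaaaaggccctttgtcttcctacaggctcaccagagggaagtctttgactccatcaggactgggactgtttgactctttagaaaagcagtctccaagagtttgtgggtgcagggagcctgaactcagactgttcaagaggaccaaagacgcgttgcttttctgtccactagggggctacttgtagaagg
Tnc: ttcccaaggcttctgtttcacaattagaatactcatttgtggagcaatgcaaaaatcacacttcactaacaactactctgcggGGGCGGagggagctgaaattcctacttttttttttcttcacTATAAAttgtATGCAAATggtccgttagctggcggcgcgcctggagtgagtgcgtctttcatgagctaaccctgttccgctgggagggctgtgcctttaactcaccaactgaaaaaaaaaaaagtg
The *Tnc* stretch held 1 TATAAA, present in 12.4% of the 32851 windows of the table over the same 250 bases, 1 GGGCGG (32.7% of windows) and 1 ATGCAAAT (1.6% of windows). *Acan* had 3 matches to GGGCGG, of which a pair overlapped, 1 to CCAAT (33.8% of windows) and 1 to CAGCTG (13.0% of windows). None of the 6 motifs was found in the shorter stretches of *Hapln1* and *Tnr*. These matches are letters in a window and not measured binding sites.

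*Hapln1*, the link protein that fixes lecticans to hyaluronan, changed most. The log2 values of *Hapln1* in replicates 1 and 2 were 4.64 and 4.91 on the 0 DIV arrays, 4.47 and 4.46 on those of 1 DIV, 7.10 and 5.90 on those of 3 DIV, 7.90 and 7.67 on those of 6 DIV, 8.58 and 8.69 on those of 12 DIV and finally 8.26 and 8.61 on those of 15 DIV. All arrays of 3 DIV and later lay above all arrays of 0 and 1 DIV, and the 12 and 15 DIV arrays overlapped. The mean was 8.44 ± 0.25 at 15 DIV and 4.78 ± 0.19 at 0 DIV (SD, n = 2 each), a difference of 3.66 (adjusted p = 3.24e-05 from limma, with a standard error of 0.32), with 3.62 in replicate 1 and 3.70 in replicate 2. Already at 3 DIV it was 1.73 higher than at 0 DIV (adjusted p = 0.013), a call that ended without either 0 DIV array (0.057 and 0.12) or without replicate 1 at 3 DIV (1.08, adjusted p = 0.113). *Hapln1* was also the only 1 of the 10 genes to pass between neighbouring times, with 3 DIV over 1 DIV at 2.04 (adjusted p = 0.045, against 0.177% of all genes called), but this call ended with no replicate block (0.068), with all probesets (0.105) and without any 1 of 9 arrays (up to 0.45 without replicate 1 at 3 DIV). Of its 10 probesets, the 5 that entered the gene value had differences of 3.01 to 4.22 at 15 DIV and the other 5 of 0.10 to 1.85, and the gene difference was 2.44 when all probesets were combined (0.82 at 3 DIV and 1.91 at 6 DIV).

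*Hapln4*, a link protein of adult nets that binds brevican, passed the test at 12 and 15 DIV. Its values in both replicates, in the same order, were 6.02 and 5.60 on the 0 DIV arrays, 5.31 and 5.61 on those of 1 DIV, 5.97 and 5.77 on those of 3 DIV, 5.67 and 5.74 on those of 6 DIV, 6.86 and 6.45 on those of 12 DIV and finally 6.60 and 7.36 on those of 15 DIV. Up to 6 DIV no array exceeded 6.02, and all 4 arrays of 12 and 15 DIV lay above that. At 15 DIV the mean was 6.98 ± 0.54, against 5.81 ± 0.29 at 0 DIV (SD, n = 2 each), a difference of 1.17 (adjusted p = 0.011 from limma). With all probesets the difference was 0.61 (adjusted p = 0.010). The call ended without replicate 2 at 0 DIV (0.91, adjusted p = 0.10) or replicate 2 at 15 DIV (0.72, adjusted p = 0.12). *Hapln4* is among the dimmer genes of the arrays, with a mean that was higher than in 24.6% of genes.

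*Acan* encodes aggrecan, the lectican that marks perineuronal nets. The *Acan* values, replicate 1 before replicate 2, were 5.27 and 4.92 on the 0 DIV arrays, 7.19 and 6.54 on those of 1 DIV, 7.89 and 7.55 on those of 3 DIV, 7.11 and 8.44 on those of 6 DIV, 6.09 and 9.38 on those of 12 DIV and finally 7.60 and 7.85 on those of 15 DIV. Both 0 DIV arrays lay below all other arrays, while the replicates differed by 3.29 at 12 DIV, with replicate 2 the higher. The mean was 7.72 ± 0.18 at 15 DIV and 5.09 ± 0.25 at 0 DIV (SD, n = 2 each), and the difference of 2.63 had a standard error of 0.74 (adjusted p = 0.025 from limma), the widest of the 10 genes. This standard error is drawn from all 6 times, so that the gap of 3.29 at 12 DIV enters it. Within replicates 1 and 2 the difference at 15 DIV was 2.33 and 2.94, and its call held under 17 of 22 other settings. The *Acan* difference from 0 DIV was 2.68 at 6 DIV (adjusted p = 0.037) and 2.64 at 12 DIV (adjusted p = 0.025). At 3 DIV it was already 2.63, with 2.62 in replicate 1 and 2.64 in replicate 2, but did not pass (adjusted p = 0.064). At 1 DIV it was 1.77, which did not pass either (adjusted p = 0.28). The call at 15 DIV ended without any 1 of the 4 arrays of 0 and 15 DIV (0.055 to 0.175). That at 12 DIV ended without replicate 2 of that day (1.02, adjusted p = 0.145) and without either 0 DIV array (0.059 and 0.167), but not without replicate 1 of 12 DIV, where the difference was 4.26. At 6 DIV the call was lost in the fit with no replicate block (0.061) and when any array of 0, 6 or 15 DIV was left out (0.055 to 0.25). Over 18 probesets the differences at 15 DIV ran from -0.08 to 3.77, and with all of them combined the gene difference was 1.60 (1.65 at 6 DIV).

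*Bcan* encodes brevican, an adult lectican made by astrocytes, oligodendrocyte precursors and some neurons. The *Bcan* values were 8.20 and 8.55 on the 0 DIV arrays, 7.97 and 8.20 on those of 1 DIV, 9.36 and 8.37 on those of 3 DIV, 10.56 and 9.35 on those of 6 DIV, 10.94 and 10.33 on those of 12 DIV and finally 10.83 and 10.94 on those of 15 DIV. Replicate 1 was higher than replicate 2 from 3 to 12 DIV, by as much as 1.21 at 6 DIV, and the replicates were level again at 15 DIV. The mean of 10.88 ± 0.08 at 15 DIV, against 8.37 ± 0.24 at 0 DIV (SD, n = 2 each), gave a difference of 2.51 (adjusted p = 6.12e-04 from limma, with a standard error of 0.36), which is 5.70-fold. *Bcan* also passed at 6 DIV (1.58, adjusted p = 0.017, but 1.16 and 0.17 without replicate 1 at 0 DIV and 1.07 and 0.18 without replicate 1 at 6 DIV) and at 12 DIV (2.26, adjusted p = 0.0013). Of its 13 probesets, 11 were higher at 15 DIV when tested singly, against 7.22% of all probesets.

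*Ncan*, which encodes neurocan, is grouped with the embryonic matrix but did not fall. *Ncan* had log2 values of 10.32 and 10.68 on the 0 DIV arrays, 10.45 and 10.57 on those of 1 DIV, 10.97 and 11.01 on those of 3 DIV, 11.58 and 11.13 on those of 6 DIV, 10.91 and 11.33 on those of 12 DIV and finally 11.27 and 11.48 on those of 15 DIV. All arrays from 3 DIV on lay above all arrays of 0 and 1 DIV. The mean was 11.38 ± 0.14 at 15 DIV and 10.50 ± 0.26 at 0 DIV (SD, n = 2 each), a difference of 0.87 (adjusted p = 0.015 from limma, with a standard error of 0.22). With quantile-normalized gene values this call ended (0.60, adjusted p = 0.066), and so it did without either 15 DIV array (0.075 and 0.091) or the first 0 DIV replicate (0.13). At 6 DIV the difference was 0.85 (adjusted p = 0.029), with calls lost under 7 of 19 other settings, where it was as low as 0.41 with all probesets and 0.52 (adjusted p = 0.29) without replicate 1 at 6 DIV. All 15 probesets had a difference above 0 at 15 DIV (0.05 to 1.15).

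*Vcan*, which encodes versican, a lectican of the embryonic matrix, was lower at 6, 12 and 15 DIV. *Vcan* had log2 values of 10.06 and 9.86 on the 0 DIV arrays, 9.97 and 9.44 on those of 1 DIV, 9.73 and 9.40 on those of 3 DIV, 9.09 and 7.91 on those of 6 DIV, 8.11 and 8.11 on those of 12 DIV and finally 8.11 and 8.43 on those of 15 DIV. No array of 6 DIV or later reached any array of 0 to 3 DIV. The mean was 8.27 ± 0.23 at 15 DIV and 9.96 ± 0.14 at 0 DIV (SD, n = 2 each), and *Vcan* fell by 1.69 (adjusted p = 0.0020 from limma, with a standard error of 0.30), which is 3.23-fold. It had fallen by 1.46 at 6 DIV (adjusted p = 0.0093) and by 1.85 at 12 DIV (adjusted p = 0.0013). The 6 DIV call ended without either 0 DIV array (0.058 and 0.067) or without replicate 2 at 6 DIV (0.12), where the difference was -0.94. All 15 probesets were lower at 15 DIV (-2.55 to -1.18) and 7 passed singly, against 2.64% of all probesets that were lower. Splice forms of versican differ in their chondroitin sulphate domains, and the probesets could not be assigned to them because no positions were used.

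*Tnc*, tenascin-C, is made by progenitors and astrocytes and crosslinks lecticans in the embryonic matrix. In *Tnc* the log2 values were 10.12 and 10.01 on the 0 DIV arrays, 9.37 and 9.07 on those of 1 DIV, 10.27 and 8.60 on those of 3 DIV, 9.58 and 8.60 on those of 6 DIV, 7.35 and 7.51 on those of 12 DIV and finally 8.05 and 6.70 on those of 15 DIV. Both 12 DIV and both 15 DIV arrays lay below all others, and replicate 1 was higher than replicate 2 by 1.67 at 3 DIV and by 1.35 at 15 DIV. With a mean of 7.38 ± 0.95 at 15 DIV, against 10.06 ± 0.07 at 0 DIV (SD, n = 2 each), *Tnc* fell by 2.69 (adjusted p = 6.14e-04 from limma, with a standard error of 0.39). It fell by 2.64 at 12 DIV (adjusted p = 7.87e-04), while its differences of -0.63 at 3 DIV and -0.98 at 6 DIV did not pass (adjusted p = 0.35 and 0.13). All 29 of its probesets were lower at 15 DIV (-4.25 to -1.13), and 23 passed singly.

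*Tnr*, tenascin-R, which crosslinks lecticans in the adult matrix and in nets, passed the test at 15 DIV alone. *Tnr* had values of 8.30 and 8.42 on the 0 DIV arrays, 8.43 and 8.65 on those of 1 DIV, 8.18 and 8.80 on those of 3 DIV, 8.23 and 7.93 on those of 6 DIV, 8.50 and 8.76 on those of 12 DIV and finally 9.06 and 9.48 on those of 15 DIV. Only the 15 DIV arrays lay above the range of 0 to 6 DIV. The mean was 9.27 ± 0.30 at 15 DIV and 8.36 ± 0.08 at 0 DIV (SD, n = 2 each), a difference of 0.91 (adjusted p = 0.013 from limma, with a standard error of 0.22). At 12 DIV it was 0.27 (adjusted p = 0.42). Quantile normalization ended the call at 15 DIV (0.67, adjusted p = 0.055), as did leaving out either 0 DIV array (0.057 and 0.080) or replicate 2 at 15 DIV (0.097). All 23 probesets had a difference above 0 (0.30 to 1.35). The difference between *Tnr* and *Tnc* in their change was not tested.

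*Has2* and *Has3*, which make the hyaluronan chains to which the rest of the matrix binds, passed the test on different days and in opposite directions. *Has2* had log2 values of 7.71 and 8.15 on the 0 DIV arrays, 7.48 and 7.04 on those of 1 DIV, 7.76 and 6.52 on those of 3 DIV, 7.14 and 6.73 on those of 6 DIV, 6.87 and 6.61 on those of 12 DIV and finally 7.17 and 6.87 on those of 15 DIV. From 6 DIV on, its arrays lay below those of 0 DIV. It fell by 1.19 at 12 DIV (adjusted p = 0.017 from limma), a call that ended without replicate 2 at 0 DIV (-0.70, adjusted p = 0.16) or replicate 1 at 12 DIV (0.073). At 15 DIV the difference was -0.91 (95% confidence interval -1.59 to -0.23, adjusted p = 0.053), and it passed under 10 of 22 other settings, among them centring (0.0216), quantile normalization (0.0175), leaving out replicate 1 of 0 DIV (-1.40, adjusted p = 0.0185) and leaving out either 3 DIV array (0.020). Without replicate 2 at 0 DIV it was -0.43 (adjusted p = 0.41).
*Has3* was higher at 3 and 6 DIV. The *Has3* values were 6.70 and 6.58 on the 0 DIV arrays, 7.48 and 7.22 on those of 1 DIV, 8.28 and 7.66 on those of 3 DIV, 7.46 and 7.88 on those of 6 DIV, 6.70 and 7.22 on those of 12 DIV and finally 6.70 and 6.87 on those of 15 DIV. Both arrays were highest at 3 or 6 DIV, and those of 15 DIV differed by 0.01 (replicate 1) and 0.29 (replicate 2) from their 0 DIV arrays. *Has3* was 1.33 higher at 3 DIV (adjusted p = 0.018 from limma) and 1.03 higher at 6 DIV (adjusted p = 0.028) than at 0 DIV. At 15 DIV the difference was 0.15 (95% confidence interval -0.44 to 0.74, adjusted p = 0.73), and -0.08 with all probesets. Of the 3 probesets that entered the gene value, 2 had differences of 1.67 and 1.47 at 3 DIV and the third -0.09, and singly the smallest adjusted p was 0.088. With all 5 probesets combined the gene difference was 0.22 at 3 DIV (adjusted p = 0.46) and 0.53 at 6 DIV (0.069), and with the mean of the 3 it was 1.01 at 3 DIV (0.058). The calls also ended without either 0 DIV array, without replicate 1 at 3 DIV (0.95, adjusted p = 0.23) for the first of these times, and without either 6 DIV array (0.062 and 0.25) for the second.

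**Figure D2:**
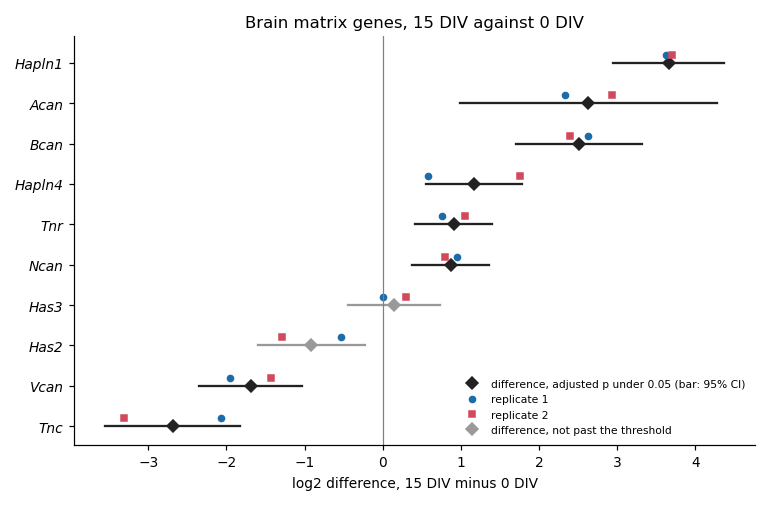
Log2 difference of each brain matrix gene, 15 DIV minus 0 DIV (x axis), ordered by size. Diamonds are the fitted differences with 95% confidence intervals, black where the adjusted p was under 0.05, and circles and squares are the differences within replicates 1 and 2. *Hapln1* (3.66) and *Tnc* (-2.69) stand at the ends, and the intervals of *Has3* (-0.44 to 0.74) and *Has2* (-1.59 to -0.23) belong to the 2 genes that did not pass.

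The genes passed the test against 0 DIV on different days, and differences between genes in timing were not tested. At 1 DIV none of the 10 passed against 0 DIV, where 0.766% of all genes were higher and 0.280% lower (limma, with 2 of the 10 at an unadjusted p under 0.05), and 1 passed when either 12 DIV array was left out. At 3 DIV *Hapln1* and *Has3* were higher, where 6.11% of all genes were called, 4.70% higher and 1.41% lower. At 6 DIV *Acan*, *Bcan*, *Ncan*, *Hapln1* and *Has3* were higher and *Vcan* was lower, where 13.7% of all genes were called, 9.88% higher and 3.85% lower. At 12 DIV *Acan*, *Bcan*, *Hapln1* and *Hapln4* were higher and *Vcan*, *Tnc* and *Has2* were lower, where 24.8% of all genes were called, 15.9% higher and 8.94% lower. The 12 DIV call of *Hapln4* (0.84, adjusted p = 0.048) ended under 11 of 18 other settings and was 0.46 with all probesets. Of these 5 comparisons, which share the 0 DIV arrays, *Tnr* passed in that of 15 DIV alone. Between neighbouring times after 3 DIV none of the 10 passed: 0.0589% of all genes were higher and 0.0491% lower at 6 DIV against 3 DIV, 0.0295% higher and 0% lower at 12 DIV against 6 DIV, and 0% either way at 15 DIV against 12 DIV (limma, with 3, 5 and 1 of the 10 at an unadjusted p under 0.05). At 3 DIV no call was left without either 0 DIV array or replicate 1 of that day. The 6 calls at 6 DIV became 2 without either 0 DIV array or replicate 1 of 6 DIV and 3 without replicate 2 of 6 DIV, and the 7 calls at 12 DIV became 4 without replicate 2 of 0 DIV.

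Single probesets of a gene differed in how far they moved at 15 DIV against 0 DIV. Of the 141 probesets of the 10 genes, 27 were higher and 30 lower (limma, adjusted over 212138 probesets), where 7.22% and 2.64% of all probesets were. Those of *Vcan*, *Tnc* and *Has2* were all below 0, and those of *Ncan*, *Hapln1*, *Hapln4* and *Tnr* all above 0. The number that passed singly was 2 of 18 in *Acan* (with 2 below 0), 2 of 15 in *Ncan*, 1 of 7 in *Hapln4*, 5 of 23 in *Tnr*, 6 of 10 in *Hapln1* and 0 of 6 and 0 of 5 in *Has2* and *Has3*. *Bcan* had 1 probeset with a difference of -0.54 among 12 above 0. Probesets of a gene share their RNA and are not replicates. The count of lower probesets was 17 without the replicate block and 14, 4, 10 and 12 when replicate 1 or 2 of 0 DIV or replicate 1 or 2 of 15 DIV was left out. That of higher probesets was 6, 11 and 7 without replicate 1 of 0 DIV, replicate 1 of 15 DIV and replicate 2 of 15 DIV.

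**Figure D3:**
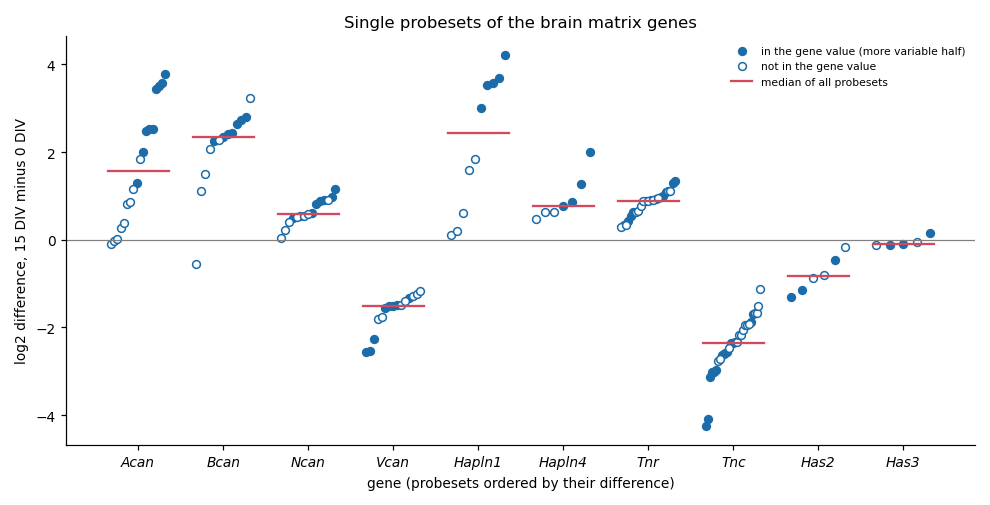
Log2 difference of single probesets, 15 DIV minus 0 DIV (y axis), for each brain matrix gene (x axis). Filled points entered the gene value, open points did not, and the red line is the median of all probesets of the gene. All 29 points of *Tnc* and all 15 of *Vcan* lie below 0, and *Hapln1* spreads from 0.10 to 4.22.

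Markers of several cell types also differed between 0 and 15 DIV. The background for the count of each marker list, here and below, is 16.4% of all genes higher and 8.43% lower. The astrocyte list had a mean log2 value of 9.81 to 10.51 at 15 DIV and 8.17 to 8.33 at 0 DIV, with 8 of 12 genes higher and none lower, among them *Aqp4* (3.99), *Aldh1l1* (3.39) and *Apoe* (3.04). That of oligodendrocyte precursors was 8.91 to 9.21 at 15 DIV and 6.69 to 6.89 at 0 DIV, with all 7 genes higher, among them *Pdgfra* (4.18), *Olig1* (3.34) and *Olig2* (2.83). *Aqp4* had a difference of 0.85 with all probesets. At 6 DIV the astrocyte list lay at 9.97 in replicate 1 and 8.77 in replicate 2, and at 3 DIV at 9.05 and 7.87. The precursor list was also higher in replicate 1, with 8.38 and 7.55 at 6 DIV and 7.49 and 6.67 at 3 DIV. So was the neural progenitor list, with 8.98 and 8.34 at 6 DIV and 9.05 and 8.32 at 3 DIV. *Bcan*, *Tnc*, *Vcan*, *Hapln1* and *Has2* were higher in replicate 1 on both days too. At 6 DIV replicate 1 was higher by 1.21 in *Bcan*, by 1.18 in *Vcan* and by 0.97 in *Tnc*, and *Acan* had the opposite order at 6 and 12 DIV. The mean of the neural progenitor list was 8.55 to 8.68 at 15 DIV, against 9.34 to 9.54 at 0 DIV, with 3 of 10 genes lower: *Eomes* (-5.55), *Pax6* (-2.11) and *Vim* (-0.59, a call that ended under 12 of 21 other settings). *Eomes* had the widest difference of this list by far, the median was -0.35, and *Hes5* (0.42), *Fabp7* (0.38), *Sox2* (0.25), *Hes1* (0.07), *Mki67* (-0.41) and *Top2a* (-0.45) did not pass. *Tnc* and *Vcan* were also lower at 15 DIV than at 0 DIV. The progenitor list already lay at 9.05 (replicate 1) and 8.32 (replicate 2) at 3 DIV. *Tnc* averaged 9.44 at 3 DIV, 9.09 at 6 DIV and 7.43 at 12 DIV, and *Vcan* 9.57, 8.50 and 8.11. Differences in timing and the part of these cell types in the results were not tested.
Among interneurons, some of which bear nets, 6 of 10 measured genes were higher, with a list mean of 9.23 to 9.55 at 15 DIV and 8.01 to 8.19 at 0 DIV. *Sst* was 2.65, *Gad1* 2.44 and *Kcnc2* 2.38 higher. *Kcnc1* (0.66), *Erbb4* (0.56), *Syt2* (-0.11) and *Lhx6* (-0.18) did not pass. *Pvalb*, the calcium buffer that defines most net-bearing interneurons, was chosen here after its values were seen. It had 7.04 and 7.33 at 15 DIV, against 6.31 and 6.54 at 0 DIV, a difference of 0.76 (adjusted p = 0.031 from limma), which did not pass without the replicate block (0.064), with centring (0.090) or without any 1 of the arrays of 0 and 15 DIV (0.11 to 0.14). The neuron list, used to check the labelled cell type, had 11.54 to 11.59 at 15 DIV and 9.46 to 9.66 at 0 DIV. Of its 8 measured genes 6 were higher, led by *Camk2a* (4.65), *Nefl* (3.47) and *Slc17a7* (2.96). *Tubb3* (-0.55, adjusted p = 0.058 from limma) and *Map2* (0.02, adjusted p = 0.94) did not pass, so not all genes of the list rose. Of the microglia list 7 of 10 genes were lower (*Cx3cr1* -2.60, *Ctss* -2.31 and *Tyrobp* -2.24, or -1.66, -1.40 and -1.22 with all probesets), with a mean of 6.44 to 6.45 at 15 DIV and 7.54 to 7.60 at 0 DIV. Of the endothelial and mural list 8 of 9 were lower (*Rgs5* -2.81, *Cdh5* -1.31 and *Pecam1* -1.12, the last of which did not pass without replicate 2 at 15 DIV, with an adjusted p of 0.058). Mature oligodendrocytes had 2 of 7 measured genes higher (*Mbp* by 1.54 and *Cnp* by 1.43). The other 5 did not pass, among them *Mobp* (-0.61), *Mog* (-0.18), *Mag* (-0.17) and *Myrf* (0.07), and the list had a median difference of 0.07 and a mean of 6.94 to 7.19 at 15 DIV, against 6.66 to 6.79 at 0 DIV. The 6 fibroblast and meninges genes had differences of -0.82 to 0.03, with a list mean of 6.37 to 6.47 at 15 DIV and 6.66 to 6.77 at 0 DIV. RMA values have no zero, so no marker could be read as absent.

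**Figure D4:**
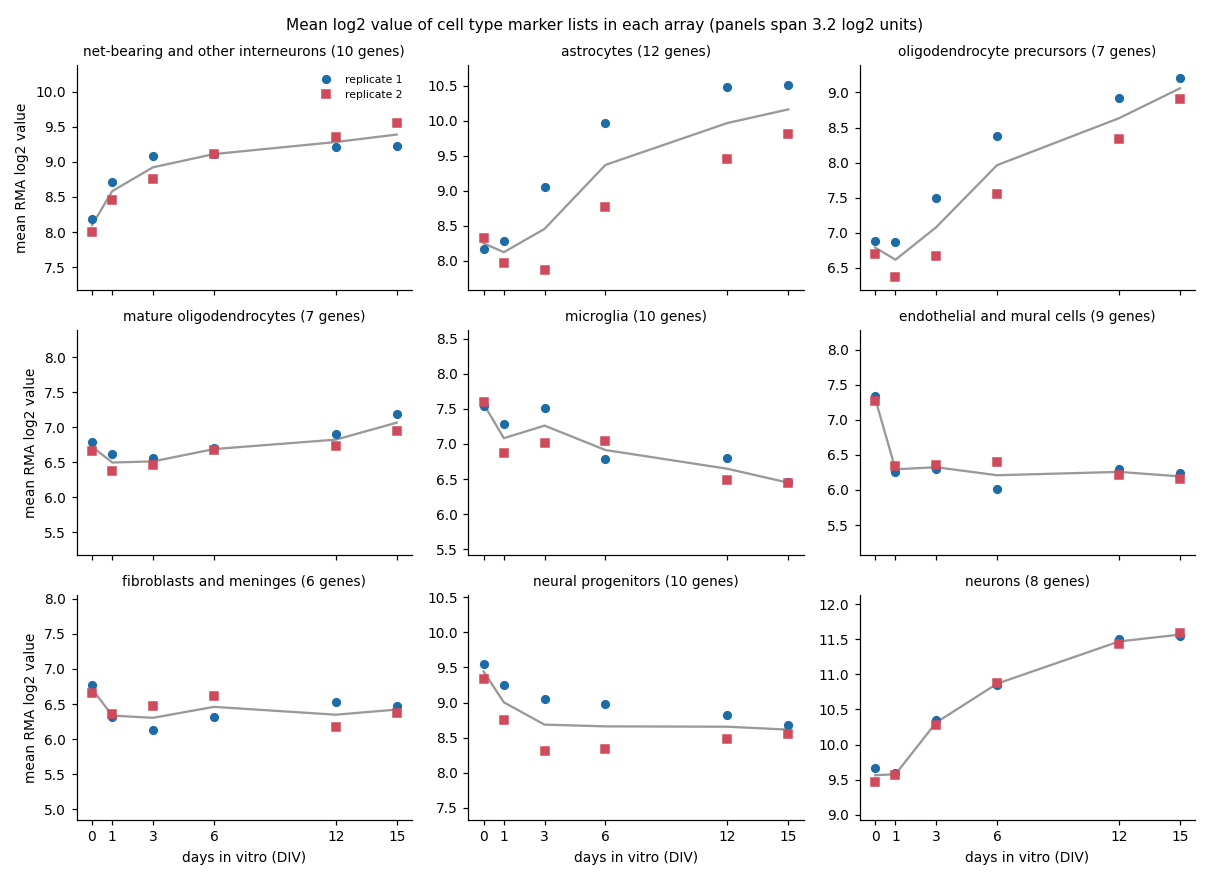
Mean RMA log2 value (y axis) of the 9 cell type marker lists in each array against days in vitro (x axis), circles for replicate 1, squares for replicate 2 and a line through the means. Astrocyte markers lie higher in replicate 1 from 1 DIV on (9.97 against 8.77 at 6 DIV), as do those of oligodendrocyte precursors and neural progenitors. The neuron list lies highest at 15 DIV (11.54 to 11.59).

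Genes that build, sulphate, cut or bind the same matrix were read from 7 lists. Of their 94 measured genes, 31 were higher and 12 lower at 15 DIV against 0 DIV (limma, adjusted over all genes), with a median difference of 0.40, against 0.01 over all genes. Of all genes, 16.4% were higher and 8.43% lower, which is the background for each list's count. The number of lower genes was 1 without replicate 1 of 15 DIV, 5 without either 0 DIV array, and 7 without replicate 2 of 15 DIV or with no replicate block.
Among other link proteins, Has1, tenascins and brain proteoglycans, 7 of 16 were higher and none lower. *Spock3* and *Spock2*, which encode testicans, were 3.34 and 1.86 higher, and *Dcn*, which encodes the small proteoglycan decorin, 2.30. *Hapln2* (0.44, adjusted p = 0.21), *Hapln3* (0.42, adjusted p = 0.34) and *Has1* (-0.29, adjusted p = 0.47), named after their values were seen, did not pass.
Of 13 genes that assemble chondroitin sulphate chains, 6 were higher and 1 lower. *Xylt1*, which starts the chain on the core protein, was 1.90 higher, *Csgalnact1*, which adds the first sugar of the chondroitin polymer, 1.77, and *Chpf2*, which helps to extend it, 1.53. *Chsy1*, a chondroitin polymerase, fell by 0.61 (adjusted p = 0.034), a call that ended under 11 of 21 other settings, among them without any 1 of the arrays of 0, 1, 6 and 15 DIV. The call of *Csgalnact1* ended without replicate 1 of 0 DIV (1.05, adjusted p = 0.082) and without replicate 2 of 15 DIV (1.69, adjusted p = 0.053), and with all probesets its difference was 1.16. Of 10 sulphotransferase and sulphate donor genes, 3 were higher and none lower: the chondroitin sulphotransferase genes *Chst11* by 0.97 and *Chst3* by 0.64 (adjusted p = 0.042), and *Ust*, a uronyl sulphotransferase, by 0.80. The call of *Chst3* ended under 14 of 21 other settings, among them without any 1 of the arrays of 0, 1, 3 and 15 DIV, and that of *Ust* under 4, among them without replicate 1 of 0 DIV (0.108) or replicate 2 of 15 DIV (0.127).
Of 16 matrix proteases and inhibitors, 6 were higher and 3 lower. The inhibitor gene *Timp4* was 2.55 higher, *Adamts9*, a protease that cuts aggrecan and versican, 1.63 and *Mmp15* 1.30, and the membrane protease gene *Mmp14* fell by 0.79 (adjusted p = 0.0275, a call that ended under 7 of 21 other settings, among them without any 1 of the 4 arrays of 0 and 15 DIV).
Of 7 measured genes of hyaluronan breakdown, 2 were higher and 1 lower. *Cemip*, needed to depolymerise hyaluronan in skin fibroblasts, was 2.34 higher (adjusted p = 1.48e-04), *Hexa*, a lysosomal hexosaminidase, 0.89 higher (adjusted p = 0.022, a call that ended without either 0 DIV array or replicate 1 of 15 DIV), and *Cemip2* fell by 1.63 (adjusted p = 2.65e-04).
Of 16 receptors and net ligands, 5 were higher and 2 lower. *Rtn4rl1*, a receptor of chondroitin sulphate proteoglycans, was 2.17 higher, *Cd44*, the hyaluronan receptor, 1.76, and *Itga8*, an integrin subunit, 1.59. With all probesets *Cd44* was 0.99 and *Itga8* 0.89 higher. *Otx2*, a homeoprotein that net-bearing neurons take up, fell by 1.11 (adjusted p = 0.0057), and by 0.50 with all probesets. Its difference was -0.88 without replicate 2 of 0 DIV and -0.94 without replicate 1 of 15 DIV, and the call ended in both. *Otx2* is a dim gene, with means of 5.08 at 15 DIV and 6.19 at 0 DIV.

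**Figure D5:**
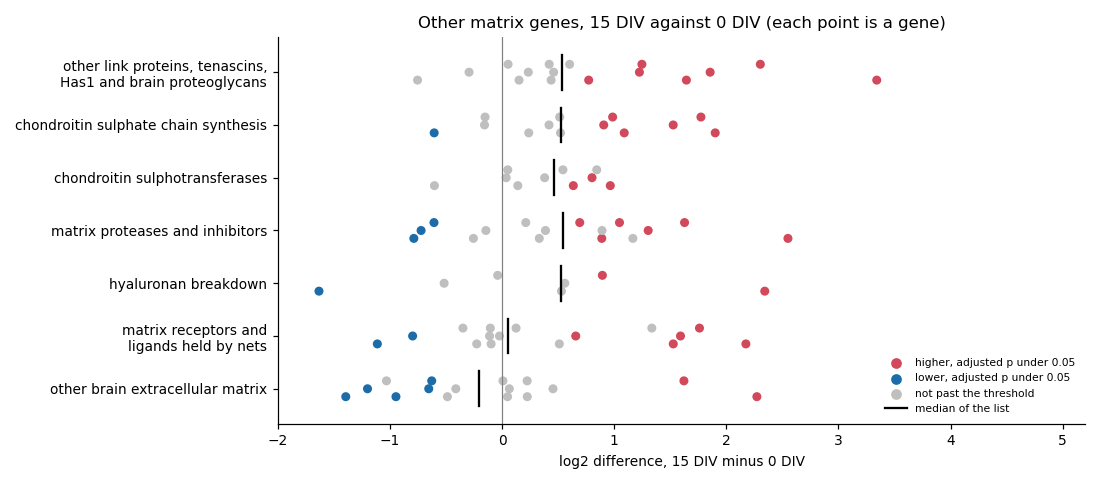
Log2 difference of single genes, 15 DIV minus 0 DIV (x axis), for the 7 lists of other matrix genes (rows). Red points were higher, blue points lower and grey points not past the threshold of limma, and the black line is the list's median. *Spock3* lies highest (3.34) and *Cemip2* lowest (-1.63).

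For each of the 8 genes that passed the F test, the genes whose values were most alike over the 12 arrays were read from the other 4474 that passed it. These arrays share the same 6 times, so any gene that changes with time correlates, and the values are a description. *Bcan* was most like *Necab1* (r = 0.991), *Hepacam* (r = 0.990) and *Mro* (r = 0.990), and *Hapln1* most like *Slc12a5* (r = 0.987), *Pkp4* (r = 0.987) and *Ptprr* (r = 0.986). *Vcan* was closest to *Ypel1*, *Ep400* and *Igf1r* (r = 0.976 to 0.978), and *Hapln4* to *Extl1* (r = 0.953), *Lypd1* and *Man2b1*. *Tnc* had its highest correlations with *Ccdc34* (r = 0.933), *Cdkn1c* (r = 0.931) and *Chsy1* (r = 0.929). *Ncan* was nearest to *Pea15a*, *Exoc3* and *Prps1* (r = 0.924 to 0.938), *Has3* to *Snx16*, *9530077C05Rik* and *Map3k2* (r = 0.892 to 0.918), and *Tnr* to *Mmd*, *P4ha2* and *Cygb* (r = 0.820 to 0.865). *Chsy1* was thus the only listed matrix gene among these 24.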

How the data were processed

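The authors deposited log2 values of 12 arrays, 1 per probeset, normalized with RMA, which corrects the background and equalizes the arrays. The methods' batch adjustment and gene summary come after these values. The gene summary was done here, and replicate entered the fits as a term. No batch effect was removed from the array values, list means and correlations given here. Of 241576 probesets, 212138 carried 1 gene symbol (4672 several, 24766 none), and 2743 outdated symbols were updated through RefSeq. Following the methods, median polish was applied to the more variable 50% of each gene's probesets, which gave 20358 genes. limma 3.58.1 (R 4.3.3) was fitted to all genes, with terms for time and for replicate (5 residual and 5.64 prior degrees of freedom), and Benjamini-Hochberg adjustment ran over all genes, or all single-symbol probesets, with a threshold of 0.05. Figures and motif counts used Python 3.11.15, pandas 2.3.3 and matplotlib 3.10.9.

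The number of arrays limits the precision. The limma p-values rest on a residual spread per gene, pooled over all 6 times after the replicate term and moderated over all genes. They do not measure the spread of the 2 arrays of the compared times alone. Pairing by replicate comes from the labels' numbers and the methods' batch term. To check it, deviations from the time means were correlated between times (r = 0.30 as the median of 15 pairs of times, lowest 0.11 and highest 0.46). Arrays of the same time correlated at 0.944 (12 DIV) to 0.979 (1 DIV), and array medians lay between 7.35 and 7.57. The genes and lists were chosen with earlier results of these data known. Of each list, up to 3 called genes of largest difference, alike in direction in both replicates, and the largest opposite call are named. Some listed genes are not reported here. Alternatives were no replicate block, all probesets, the mean of probesets, quantile normalization, centring, leaving out dim genes, an intensity trend with robust variances, only 0 and 15 DIV, an unpaired two-sample test and leaving out each array. Leaving out both 12 DIV arrays was chosen after seeing the data, and left 6 of the 10 genes higher and 2 lower at 15 DIV, as reported.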

Additional observations from a re-analysis of the deposited data

How the results depend on the processing

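No difference of the 10 brain matrix genes at 15 DIV against 0 DIV that passed the test turned its direction. Many settings keep the difference itself and can change only the call. They are the fits with no replicate block, without dim genes, with an intensity trend or with only 0 and 15 DIV. The two-sample test and leaving out arrays of other times are of this kind too. Direction was open only with other probeset summaries, other normalization or without an array of 0 or 15 DIV. Over 219 values of these genes under other settings, 187 stayed on their side of the threshold, 22 lost the call and 10, all of *Has2*, gained it. *Bcan*, *Vcan*, *Hapln1* and *Tnc* kept their call under every setting except an unpaired two-sample test, which the methods state for comparisons of experimental groups and not for the arrays. That test, with 2 arrays a group, called 0 of the 10 genes higher and 0 lower, and 0 of the other matrix genes either way (0 of 20358 genes after Benjamini-Hochberg, 4655 at an unadjusted p under 0.05, 4 of them among the 10, against 8 of the 10 by limma). With no replicate block, neighbouring times had 0 calls (1 with it), the other matrix genes 7 lower calls (12 with it) and the single probesets 17 lower calls (30 with it), and the block changed no other count by over 1.5 times. With all probesets of a gene there was 1 call at 3 DIV (2 as reported) and 0 between neighbouring times, and with the mean of the selected probesets also 0 between neighbouring times.

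Leaving out 1 array at a time gave 2 to 6 higher and 2 to 3 lower genes of the 10 at 15 DIV, 0 to 1 calls at 1 DIV, 0 to 3 at 3 DIV, 2 to 7 at 6 DIV, 4 to 7 at 12 DIV, 0 to 2 between neighbouring times and 5 to 9 in the F test. The other matrix genes had 23 to 34 higher and 1 to 15 lower calls, and the single probesets 6 to 36 higher and 4 to 34 lower calls. Where a time keeps 1 array, that array is assumed to vary like the others. The number of arrays limits every count. The background of the arrays is not part of these values. How far dim genes such as *Hapln4*, *Otx2* and *Pvalb* lie above the background is thus unknown. The 0 DIV arrays of *Hapln1* (mean 4.78) and *Acan* (mean 5.09) lay below all arrays of *Hapln4*. The same limit therefore applies to the size of their rises.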

Other observations

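Of 16 other genes of brain extracellular matrix, 2 were higher and 5 lower at 15 DIV against 0 DIV in limma, and the list's median difference was -0.20, against 0.01 over all genes, of which 16.4% were higher and 8.43% lower. *Sparcl1*, which encodes the astrocyte protein hevin, averaged 12.10 at 15 DIV and 9.83 at 0 DIV (n = 2 each), a difference of 2.27 (adjusted p = 3.48e-05). *Crtac1* was 1.62 higher (adjusted p = 3.29e-04). *Thbs1*, a thrombospondin, fell by 1.39 (adjusted p = 0.0091), by 2.05 in replicate 1 and by 0.74 in replicate 2, and its call ended without replicate 1 of 0 DIV (-1.17, adjusted p = 0.096) and without replicate 1 of 15 DIV (-0.83, adjusted p = 0.121). *Reln*, the glycoprotein of Cajal-Retzius cells and interneurons, had a difference of -1.03 (adjusted p = 0.051) and was chosen here after its value was seen.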
